A study of Homo sapiens with 7 samples.

Results

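Closely paired RNA polymerase II (Pol II) peaks are Pol II peaks on chromosomes 1 to 22 whose summit, the highest point of the peak, lies within 1500 bp of the summit of another Pol II peak. The rule selected 6565 of 19336 Pol II peaks, or 34.0%, and left 12771 unpaired. The members were chosen by Pol II summit positions, so their spacing and Pol II heights are given as descriptions. The positions come from chromatin immunoprecipitation followed by sequencing (ChIP-seq) of BJAB, a B-cell line that the labels trace to a Burkitt's lymphoma. Nothing in the labels gives a treatment, a genotype change or a time point, and the labels give the passage only as multiple. One library each was made with antibodies to Pol II (8WG16), SPT5, TRIM28, OGA (NCOAT) and O-GlcNAc (RL2), and the mouse and rabbit IgG libraries were not analysed here.

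Pol II often stops shortly after the start of transcription, and this pause is a step at which many genes are controlled. At many mammalian promoters a polymerase also starts in the opposite direction from the same nucleosome-poor stretch, which can place a pair of polymerase signals close together. SPT5, as part of DSIF, helps to hold Pol II in the pause and later travels with it during elongation. TRIM28 is a co-repressor brought to DNA by KRAB zinc finger proteins and is named in the series title as a pausing factor. O-GlcNAc is a single sugar that cells add to many nuclear and cytoplasmic proteins, among them Pol II, and OGA is the enzyme that removes it.

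The other lists held 54885 SPT5, 43998 TRIM28, 2503 OGA and 8988 O-GlcNAc peaks on the same chromosomes. Each list came from 1 library, so no test between conditions was possible and none was run. The shares below carry 95% Wilson intervals and the medians 95% order-statistic intervals. Both describe the deposited lists, with counting error as the sole error covered, and they treat neighbouring peaks as independent although peaks of 1 run share a locus. The depth of each library is unknown. Heights are the authors' fold enrichments, whose background no label or header names, and they are compared only within 1 list. Coordinates are in the build hg19. No hg19 gene annotation was used here, so promoters, strands and genes cannot be assigned to the pairs, and the markers of the cell line were not checked.

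The 6565 paired peaks formed 2908 runs, a run being a set of Pol II peaks in which each neighbouring summit lies within 1500 bp of the next. Most runs were simple pairs: 2369 runs held 2 peaks, 408 held 3, 91 held 4 and 22 held 5. The longest run held 12 peaks. Within the runs there were 3657 pairs of neighbouring summits, of which 2369 stood alone and 1288 belonged to runs of 3 or more peaks.

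Summits of a pair lay a median of 729 bp apart (713 to 743 bp), and 74.7% of pairs were spaced by 1000 bp or less. The central 50% of spacings ran from 532 to 1005 bp, and 13 pairs were spaced by less than 250 bp. For the comparisons below the pairs were divided into 5 classes, up to 500 bp and then in steps of 250 bp to 1500 bp, with 735, 1186, 809, 508 and 419 pairs and median spacings of 434, 618.5, 871, 1115 and 1363 bp. The 2 peaks of a pair were separated by a median gap of 220 bp (214 to 227 bp) and at least 55 bp. Summits inside 1 continuous peak are not pairs under this rule. Of the 2242 Pol II peaks wider than 1000 bp, 559 (24.9%) were members through a separate neighbouring peak.

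**Figure D1:**
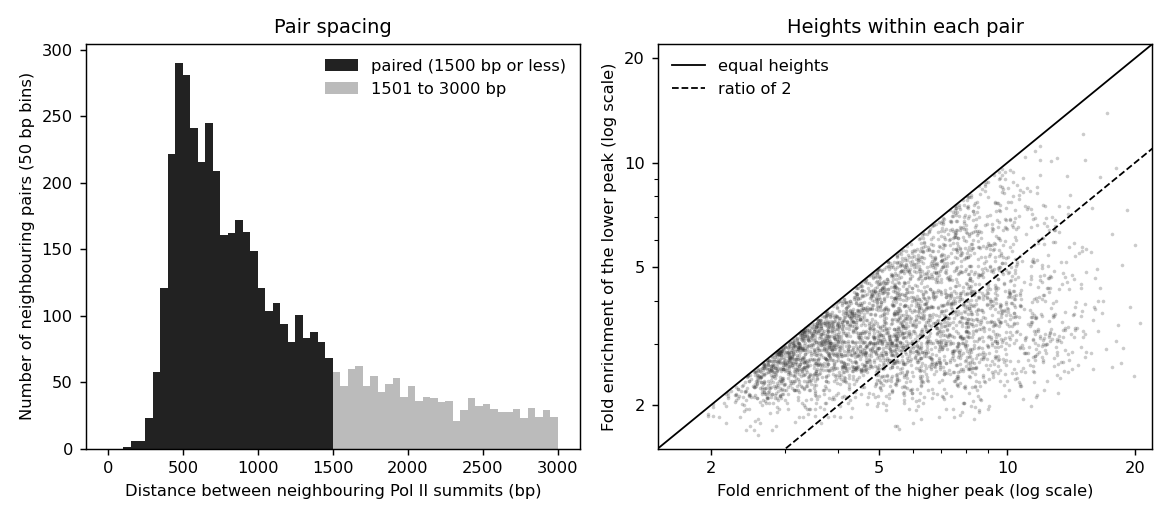
Left, number of neighbouring Pol II summits in 50 bp classes of their distance in bp, with pairs of 1500 bp or less in black and neighbours over 1500 and up to 3000 bp apart in grey; right, authors' fold enrichment of the higher (x) against the lower (y) Pol II peak of each of the 3657 pairs on log axes. Spacings of pairs have a median of 729 bp and the counts thin out towards 1500 bp, and the points spread from the line of equal heights to beyond the dashed line of a ratio of 2.

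Most pairs had unequal peaks. The higher peak had a median fold enrichment of 5.53 (5.45 to 5.66) and the lower peak 3.20 (3.16 to 3.24). The ratio of higher to lower had a median of 1.51 (1.48 to 1.54), with the central 50% from 1.19 to 2.11 and a highest value of 8.19. A ratio of 2 or more was found in 1034 pairs (28.3%), and 1 pair had equal heights. This balance was close to that of neighbouring Pol II peaks farther apart: the 15657 neighbours over 1500 bp apart had a median ratio of 1.54, with 29.1% at 2 or more. The left peak along the chromosome was the higher one in 1821 pairs (49.8%). The higher peak was also the wider one in 2701 pairs (73.9%), with a median width of 539 bp for higher peaks and 349 bp for lower peaks. The median ratio was 1.40, 1.48, 1.61, 1.54 and 1.63 from the shortest to the longest class of spacing.

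Paired peaks were lower and narrower than unpaired ones. Their median fold enrichment was 4.10 (4.04 to 4.17), against 5.36 (5.29 to 5.42) for unpaired peaks, and their median width was 427 bp (420 to 435 bp), against 558 bp (551 to 566 bp). Height and width bear on whether another list overlaps a peak, so each overlap below is also given with unpaired peaks weighted to the heights, and then to the widths, of the paired ones in 10 strata.

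SPT5, the pausing and elongation factor, had the longest of the lists and overlapped nearly all paired peaks. SPT5 peaks overlapped 6394 paired peaks by at least 1 bp (97.4%, 97.0% to 97.8%) and 12068 unpaired peaks (94.5%, 94.1% to 94.9%), with 95.5% of all Pol II peaks overlapped. With the SPT5 list shortened to the length of the OGA list by −log10 p, the paired share was 18.2%, and the share of pairs with an SPT5 summit between the Pol II summits was 8.89%, against 55.4% with the whole list. The difference of 2.90 percentage points (2.34 to 3.44) came to 4.62 points at equal heights and 4.82 points at equal widths, and the paired share was the higher one in 10 of 10 strata of height and in 8 of 10 strata of width. In 3491 pairs (95.5%) both peaks had SPT5, and in 17 pairs neither had.

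In most pairs SPT5 formed a single domain across both Pol II summits. One SPT5 peak covered the whole stretch between the summits in 2424 pairs (66.3%, 64.7% to 67.8%), against 31.2% of windows of the same length that started at a summit and ran outward from the pair. The share fell with spacing, from 88.6% of pairs of 500 bp or less through 72.6%, 58.5% and 49.6% to 44.6% of pairs in the longest class. The other lists seldom bridged a pair: 1 O-GlcNAc peak did so in 266 pairs (7.27%, against 0.752% of outside windows), 1 TRIM28 peak in 140 (3.83%, against 1.15%) and 1 OGA peak in 10 (0.273%, against 0.0137%). Median peak widths over the whole lists were 413 bp for SPT5, 304 bp for TRIM28, 236 bp for OGA and 372.5 bp for O-GlcNAc, and the part of peak width in these shares was not tested.

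Within a bridging domain the SPT5 summit sat mostly at the higher Pol II peak. It lay within 100 bp of the higher Pol II summit in 1445 of the 2424 bridged pairs (59.6%), within 100 bp of the lower one in 295 (12.2%), elsewhere between them in 176 (7.26%) and outside the pair in 508 (21.0%). Of all 2316 SPT5 summits that fell strictly between a pair, 1630 (70.4%) lay within 50 bp of a Pol II summit, and 152 (6.56%, 5.62% to 7.65%) lay in the central 33.3% of the stretch. An SPT5 summit between the Pol II summits was found in 2026 pairs (55.4%, 53.8% to 57.0%), against 32.8% of the outside windows. When a distance of at least 100 bp from both Pol II summits was required, 397 pairs (10.9%) had one.

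Where each Pol II peak had its own SPT5 peak, the order of heights tended to match. Of 1028 such pairs, 761 had the higher SPT5 peak at the higher Pol II peak (74.0%, 71.3% to 76.6%). The share over all neighbouring Pol II peaks of a chromosome was 72.4%, which lies inside that interval. The match went with the imbalance of Pol II: over 4 classes of Pol II ratio, with median ratios of 1.11, 1.36, 1.71 and 2.62 over all pairs, it was 55.4% (49.7% to 60.9%, 298 pairs), 67.7%, 79.1% and 93.1% (89.6% to 95.5%, 289 pairs). For TRIM28 the order matched in 416 pairs (55.4%, 51.8% to 58.9%, against 52.3% of all neighbours). For O-GlcNAc it matched in 54 of 103 pairs (52.4%, 42.9% to 61.8%, against 46.2%), and for OGA in 6 of 12 (50.0%, 25.4% to 74.6%, against 47.7%).

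O-GlcNAc, the sugar mark, had its summits between the Pol II summits rather than on them. An O-GlcNAc summit lay between the Pol II summits in 1104 pairs (30.2%, 28.7% to 31.7%), against 8.82% of the 7314 outside windows (8.19% to 9.49%), a difference of 21.4 percentage points (19.8 to 23.0). Of the 1138 O-GlcNAc summits between pairs, 502 (44.1%, 41.3% to 47.0%) lay in the central 33.3% of the stretch and 53 (4.66%) lay within 50 bp of a Pol II summit. In 496 pairs (13.6%) the O-GlcNAc summit lay in the gap outside both Pol II peaks. The stretch between borders a Pol II summit at each end, whereas an outside window starts at 1 summit, which by itself raises the share between. In runs of 3 or more peaks (1288 pairs) an outside window can also reach into the stretch of a neighbouring pair. In pairs that stood alone, O-GlcNAc lay between in 39.1%, against 8.36% of their outside windows.

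**Figure D2:**
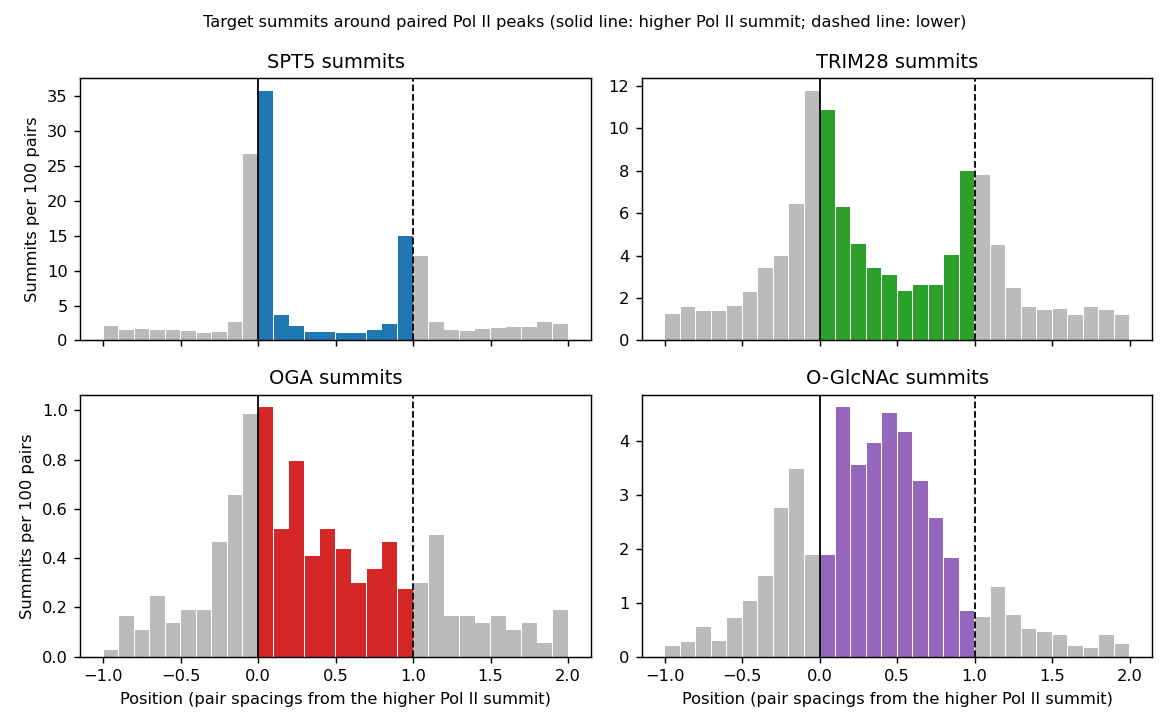
Summits of each target per 100 Pol II pairs (y) by position (x), in units of the pair's own spacing, from the higher Pol II summit at 0 to the lower one at 1; coloured bars lie between the 2 summits and grey bars outside, and a summit at the same base as a Pol II summit is in the bar to its right. SPT5 and TRIM28 rise at both Pol II summits and are low between them, whereas O-GlcNAc is lower at both Pol II summits than on either side of them and highest between them.

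The share of pairs with O-GlcNAc between them fell as the spacing grew, although the stretch searched became longer. It was 40.5% (37.1% to 44.1%) at 500 bp or less, then 35.8%, 24.5% and 21.1%, and 18.4% (15.0% to 22.4%) in the longest class. The outside windows went the other way, from 6.53% in the shortest class through 7.84%, 9.52% and 11.4% to 11.1% in the longest. Neighbouring Pol II peaks over 1500 and up to 3000 bp apart had O-GlcNAc between them in 205 of 1145 cases (17.9%, 15.8% to 20.2%), against 12.1% of their outside windows.

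The distance of the O-GlcNAc summit from the higher Pol II summit varied far less over the classes than its distance from the lower one. Its median distance from the higher summit was 214 bp (204 to 222 bp), 264 bp (245 to 294 bp), 241 bp (215 to 309 bp), 239 bp (193 to 339 bp) and 206.5 bp (163 to 367 bp) from the shortest to the longest class. Its median distance from the lower summit was 217, 311.5, 602, 862 and 1124 bp over the same classes. For any summit between, the distances to the higher and the lower Pol II summit add up to the spacing. TRIM28 summits lay a median of 209 bp from the higher summit in the shortest class and 357 bp in the longest, and 215.5 and 992 bp from the lower. OGA summits lay 195 and 320 bp from the higher and 236 and 1065 bp from the lower. The share of O-GlcNAc summits in the central 33.3% of the stretch was 73.8% in the shortest class and 5.68% in the longest. In the shortest class SPT5 summits had 4.32% and TRIM28 summits 33.2% in the central 33.3%.

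Windows of equal length on either side of each Pol II summit were compared for O-GlcNAc towards and away from the partner peak. Each window reached 50% of the pair's spacing, inward or outward. In close pairs the inward window also lies near the partner peak. O-GlcNAc that faces the partner therefore cannot be told apart there from O-GlcNAc that flanks the partner. At the higher summit O-GlcNAc lay inward in 18.5% of pairs and outward in 10.6%, and at the lower summit inward in 12.6% and outward in 3.75%. In pairs of 500 bp or less the inward and outward shares were 21.6% and 6.26% at the higher summit and 18.9% and 2.18% at the lower. In the longest class they were 14.1% (11.1% to 17.7%) and 15.5% (12.4% to 19.3%) at the higher summit and 6.92% (4.86% to 9.76%) and 4.30% (2.73% to 6.69%) at the lower. In the class before it, with a median spacing of 1115 bp, they were 15.4% and 13.6% at the higher summit and 7.09% and 6.30% at the lower. In both of these classes the inward and outward intervals met at each of the summits.

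**Figure D3:**
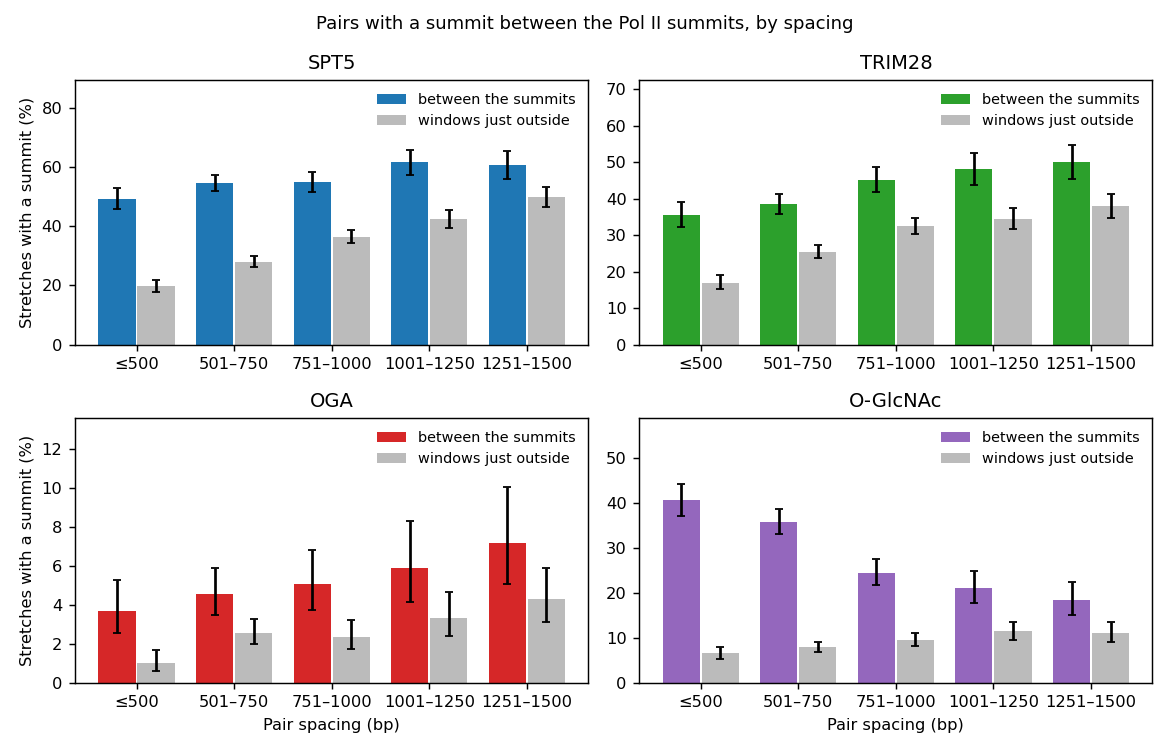
Percentage of stretches with at least 1 summit of each target (y) by class of pair spacing in bp (x), for the stretch between the Pol II summits (coloured) and for windows of the same length just outside (grey); error bars are 95% Wilson intervals. O-GlcNAc between the summits falls from 40.5% to 18.4% from the shortest to the longest class, while SPT5, TRIM28 and OGA have their lowest share in the shortest class.

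O-GlcNAc between a pair was more frequent the higher the lower Pol II peak was. From the lowest to the highest quartile of the lower Pol II peak, the share was 14.1% (12.0% to 16.5%), 19.3%, 31.7% and 55.6% (52.4% to 58.8%), while the outside windows had 6.67%, 8.70%, 9.19% and 10.7%. Over the 4 classes of height ratio it was 27.1%, 30.3%, 35.0% and 29.8%. Pairs with O-GlcNAc between had median fold enrichments of 6.99 and 3.99 for the higher and the lower peak, against 4.97 and 3.01 in pairs without, and a median spacing of 613.5 bp, against 778 bp. O-GlcNAc overlapped 2293 paired peaks (34.9%, 33.8% to 36.1%) and 5514 unpaired peaks (43.2%, 42.3% to 44.0%), with 40.4% over all Pol II peaks. With the O-GlcNAc list shortened to the length of the OGA list, the paired share was 16.6% and the share of pairs with O-GlcNAc between was 14.5%. The difference of -8.25 points (-9.68 to -6.80) was -0.12 points once heights were equal and -1.81 points once widths were equal. Where 1 of the 2 Pol II peaks had O-GlcNAc, it was the higher peak in 652 pairs and the lower in 132 (83.2% higher, 80.4% to 85.6%). Both peaks had O-GlcNAc in 824 pairs and neither in 2049 (56.0%). The shares of single peaks therefore do not show that pairs had O-GlcNAc less often.

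TRIM28, the co-repressor, overlapped a smaller share of paired than of unpaired peaks when single peaks were counted, also at equal height. It overlapped 3366 paired peaks (51.3%, 50.1% to 52.5%) and 8323 unpaired peaks (65.2%, 64.3% to 66.0%), with 60.5% over all Pol II peaks. With the TRIM28 list shortened to the length of the OGA list, the paired share was 0.777%. The difference of -13.9 points (-15.4 to -12.4) was -9.81 points at equal heights and -9.05 points at equal widths, and the paired share was the higher one in 0 of 10 strata of either kind. In 1065 pairs both peaks had TRIM28 (29.1%), in 1102 neither had (30.1%), in 1089 only the higher peak had it and in 401 only the lower. A pair with TRIM28 at 1 peak adds both an overlapped and a free peak to the shares above. Those shares therefore do not show that paired sites, taken as pairs, had TRIM28 less often.

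TRIM28 summits were densest near the Pol II summits. A TRIM28 summit lay between the Pol II summits in 1540 pairs (42.1%, 40.5% to 43.7%), against 28.0% of outside windows. However, at the higher Pol II summit the inward and outward windows of 50% of the spacing held TRIM28 in 27.5% and 27.4% of pairs, and at the lower summit in 19.4% and 17.5%. Of 1743 TRIM28 summits between pairs, 495 (28.4%) lay within 50 bp of a Pol II summit and 341 (19.6%, 17.8% to 21.5%) lay in the central 33.3%. In 251 pairs (6.86%) a TRIM28 summit lay in the gap outside both Pol II peaks, against 496 (13.6%) for O-GlcNAc.

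OGA, the enzyme that removes the sugar, had the shortest list and the lowest share at pairs of the 4 targets. With the other lists shortened to the length of the OGA list by −log10 p, the order turned for TRIM28: OGA overlapped 5.19% of paired peaks and lay between 4.98% of pairs, against 0.777% and 0.520% for TRIM28. With the whole lists, OGA overlapped 341 paired peaks (5.19%, 4.68% to 5.76%) and 840 unpaired peaks (6.58%, 6.16% to 7.02%), with 6.11% over all Pol II peaks. The difference of -1.38 points (-2.06 to -0.68) was -0.99 points at equal heights and -0.64 points at equal widths. By pair, both peaks had OGA in 48, only the higher in 194, only the lower in 76 and neither in 3339 (91.3%). The shares of single peaks therefore do not show that pairs had OGA less often. An OGA summit lay between the Pol II summits in 182 pairs (4.98%, 4.32% to 5.73%), against 2.52% of outside windows (2.18% to 2.90%). Of these 182 pairs, 153 (84.1%) also had a TRIM28 summit between the Pol II summits, against 1387 of the 3475 pairs without OGA (39.9%). An O-GlcNAc summit was between in 101 of the 182 (55.5%), against 28.9% of the pairs without OGA. The other 81 pairs had an OGA summit but no called O-GlcNAc summit between, which does not show that the sugar was absent. OGA summits between pairs lay nearer the higher Pol II summit in 119 of 186 cases (64.0%, 56.9% to 70.5%), and 54 (29.0%) lay in the central 33.3%.

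By combination, 997 pairs (27.3%) had no summit of the other lists between the Pol II summits, and 689 (18.8%) had only SPT5. SPT5, TRIM28 and O-GlcNAc together lay between 474 pairs (13.0%), SPT5 with TRIM28 between 428 (11.7%), TRIM28 alone between 358 (9.79%) and SPT5 with O-GlcNAc between 304 (8.31%). Pairs with nothing between had a median lower Pol II peak of 2.90, against 4.05 in those with SPT5, TRIM28 and O-GlcNAc. All 4 targets had a summit between 73 pairs (2.00%).

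In longer runs SPT5 was as frequent, and TRIM28 and O-GlcNAc were less frequent. SPT5 overlapped 97.1% of the 4738 peaks in runs of 2, 98.1% of the 1224 in runs of 3 and 98.2% of the 603 in runs of 4 or more. O-GlcNAc overlapped 40.7% (39.3% to 42.1%), 24.8% (22.4% to 27.2%) and 10.1% (7.96% to 12.8%), and TRIM28 55.4% (54.0% to 56.8%), 46.6% (43.8% to 49.4%) and 28.4% (24.9% to 32.1%). OGA overlapped 5.55%, 4.66% and 3.48%, with intervals that met. The median Pol II fold enrichment also went down, at 4.35, 3.77 and 3.34, and the part of height in these shares was not tested. O-GlcNAc lay between 39.1% of pairs that stood alone and 13.8% of pairs in runs of 3 or more, against 8.36% and 9.67% of their outside windows.

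**Figure D4:**
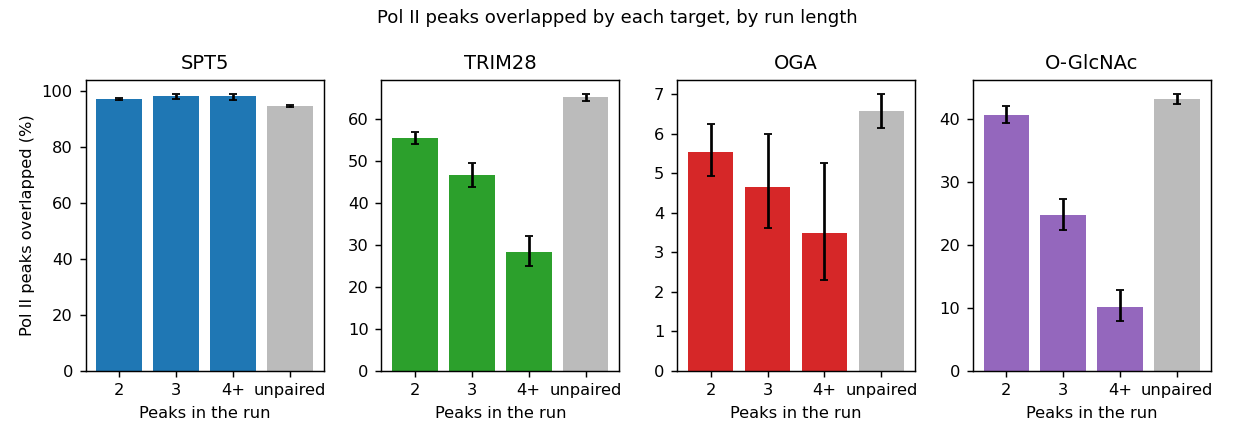
Percentage of Pol II peaks overlapped by each target by at least 1 bp (y), for peaks in runs of 2, 3 and 4 or more Pol II peaks (coloured) and for unpaired Pol II peaks (grey); error bars are 95% Wilson intervals, and the y axes differ. TRIM28 and O-GlcNAc fall with run length, to 28.4% and 10.1% in runs of 4 or more, while SPT5 stays at 97.1% to 98.2%.

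The longest run lay on chromosome 16 from 81818389 to 81827435, a span of 9047 bp with 12 Pol II peaks. Its first peak, at 81818389 to 81820395, was high and 2007 bp wide, with a fold enrichment of 8.19. The 11 others were between 2.103 and 2.83 and at most 556 bp wide. SPT5 peaks overlapped all 12, and the wider of the 2 SPT5 peaks there spanned 13720 bp. One TRIM28 peak overlapped the run, at the Pol II peak from 81826146 to 81826504, and no OGA or O-GlcNAc peak did.

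The 5 pairs with the highest lower peak were all pairs that stood alone, and they differed in what lay between. On chromosome 5 the peaks at 53606170 to 53606862 (17.2) and 53607673 to 53608290 (13.9) were 1443 bp apart from summit to summit. Each had its own SPT5 peak, with fold enrichments of 17.1 at the left and 4.22 at the right, and TRIM28 and O-GlcNAc summits lay 56 and 122 bp outside the left summit. On chromosome 19 the peaks at 18632556 to 18633042 (15.1) and 18633339 to 18633761 (12.1) were 693 bp apart. There an O-GlcNAc peak of 872 bp (8.50) bridged the pair with its summit 264 bp from the higher Pol II summit, and a TRIM28 summit (3.01) lay 377 bp from it, while SPT5 had a separate peak at each Pol II summit, 2 bp from the higher and 11 bp from the lower. On chromosome 17 the peaks at 37024579 to 37025549 (11.2) and 37025613 to 37027142 (11.9) were 1075 bp apart under 1 SPT5 peak of 2752 bp (18.1), with 2 TRIM28 summits between them and no O-GlcNAc peak. The remaining pairs of this group were on chromosome 19, at 12098201 to 12098823 (10.8) with 12099100 to 12099659 (11.6), and at 1248182 to 1248909 (10.4) with 1249166 to 1250195 (11.0). Neither of these had an O-GlcNAc summit between the Pol II summits, and in the second O-GlcNAc summits lay 163 bp outside the lower and 234 bp outside the higher Pol II summit.

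The 3 least balanced pairs joined a tall peak to one in the lowest quartile of the lower Pol II peaks of pairs. On chromosome 5 the peak at 27723650 to 27724246 (19.9) stood 8.19 times as high as its partner at 27724762 to 27725066 (2.43), and a single SPT5 peak (4.86) lay at the tall one. On chromosome 1 the peaks at 143686703 to 143687903 (18.5) and 143686074 to 143686297 (2.65) had a ratio of 6.98, and SPT5 peaks of 13.3 and 3.42 in the same order. Also on chromosome 1, the peaks at 173836322 to 173838123 (17.6) and 173835934 to 173836153 (2.59) had a ratio of 6.82. There OGA and O-GlcNAc summits lay 558 and 428 bp outside the higher Pol II summit and none lay between.

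The 3 closest pairs were low, with fold enrichments of 1.83 to 2.68, and lay within wide SPT5 peaks. The closest, on chromosome 16 at 88730310 to 88730542 and 88730599 to 88730840, had summits 123 bp apart and a gap of 56 bp, inside an SPT5 peak of 2341 bp. The next, on chromosome 5 at 158521784 to 158522180 and 158522244 to 158522510, was spaced by 153 bp inside an SPT5 peak of 2170 bp. Another, spaced by 155 bp, belonged to the run of 12. None of these 3 pairs had a summit of SPT5, TRIM28, OGA or O-GlcNAc between its Pol II summits.

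At the 5 highest pairs with all 4 targets between them, the 4 targets did not all share 1 position, although summits of some of them lay close together. On chromosome 3 the Pol II peaks at 37034262 to 37034785 (10.1) and 37034943 to 37035522 (9.51) were 796 bp apart under an SPT5 peak of 1387 bp. The O-GlcNAc summit lay 379 bp from the higher and 417 bp from the lower Pol II summit, near the midpoint, and the OGA and TRIM28 summits lay 241 and 227 bp from the lower one, 14 bp from each other. On chromosome 13 the peaks at 28194440 to 28195205 (9.01) and 28195269 to 28196274 (8.80) were 1412 bp apart and were bridged by SPT5 (11.2) and by TRIM28 (5.94), a TRIM28 peak of 1726 bp. OGA and O-GlcNAc lay 122 and 146 bp from the higher Pol II summit there, while the TRIM28 summit lay 355 bp from the lower.

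On chromosome 7 the peaks at 2393438 to 2393898 (7.57) and 2394378 to 2394803 (7.42) were 961 bp apart, each with its own SPT5 peak. TRIM28, OGA and O-GlcNAc summits lay 233, 219 and 234 bp from the lower Pol II summit, and another TRIM28 summit lay 19 bp from the higher one. On chromosome 2 the right, narrow peak at 48134579 to 48134969 (9.56) was the higher one and the left peak at 48131816 to 48134434 (7.33) was 2619 bp wide. TRIM28, OGA and O-GlcNAc summits lay 245, 263 and 243 bp from the lower Pol II summit there. On chromosome 12 the peaks at 123849056 to 123849742 (7.46) and 123849841 to 123850489 (7.05) were 702 bp apart, with OGA (10.6) and O-GlcNAc (6.18) summits 199 and 194 bp from the lower Pol II summit. There the SPT5 summit lay 4 bp from the higher Pol II summit, and 2 TRIM28 summits lay 66 and 336 bp from it.

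**Figure D5:**
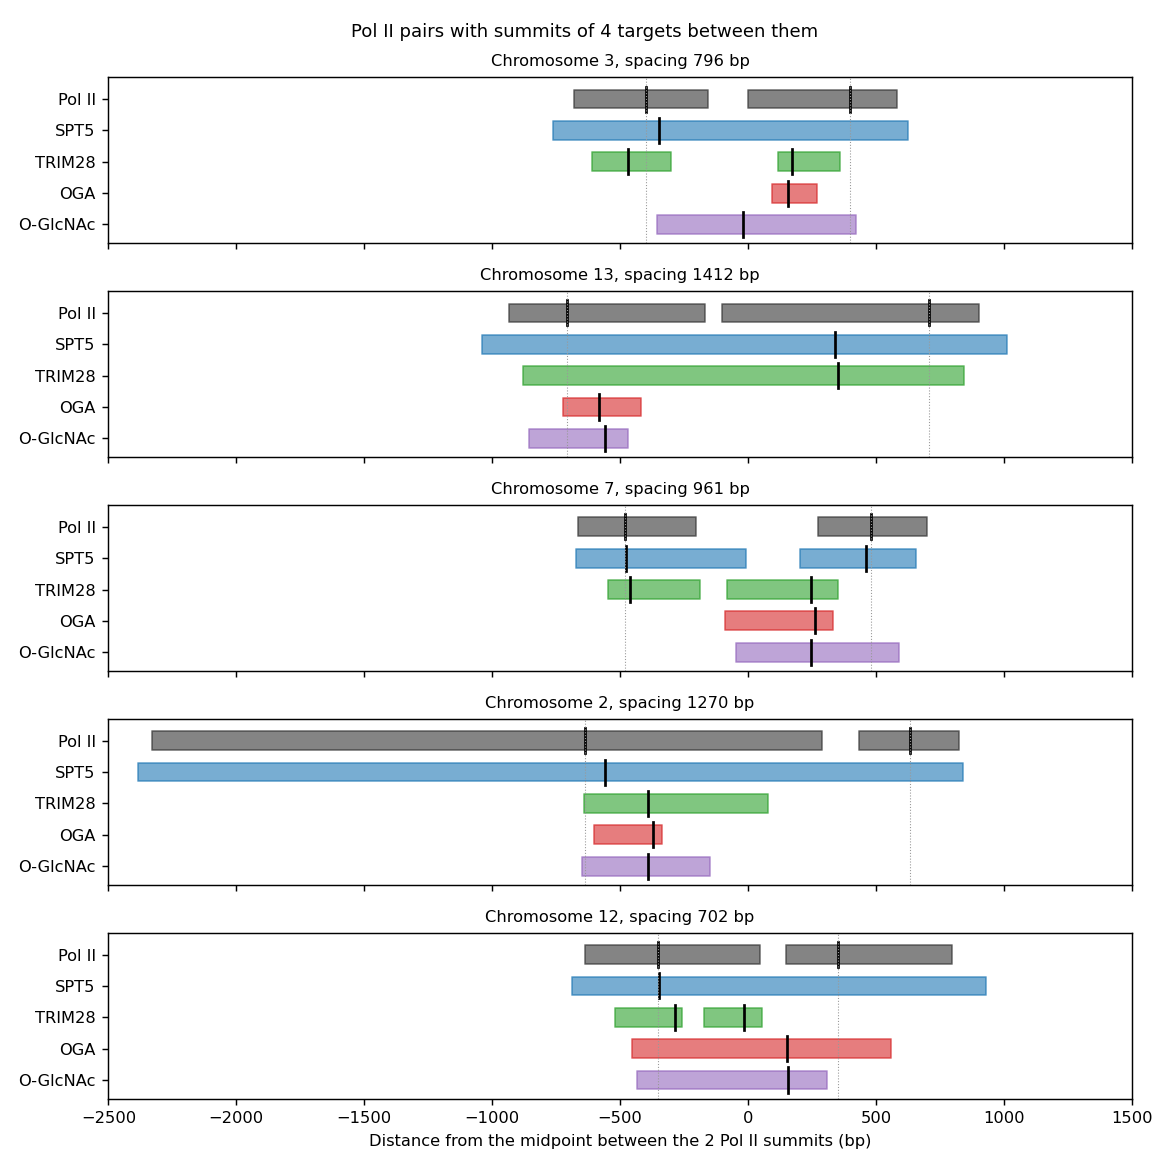
Peaks (bars) and summits (black ticks) of the 5 targets at the 5 highest Pol II pairs with all 4 other targets between the Pol II summits, by distance in bp from the midpoint between the Pol II summits (dotted lines mark them). OGA and O-GlcNAc ticks lie between the dotted lines at each of the 5 pairs and beside each other at 4 of them, and at the pair on chromosome 3 O-GlcNAc is near the midpoint.

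At the limit of the rule, the 149 pairs in the last 100 bp up to 1500 bp had a median height ratio of 1.66 and a median lower peak of 3.37, and the 105 neighbours in the first 100 bp beyond it had 1.504 and 3.01. Inside the limit a summit lay between the Pol II summits in 61.7% of pairs for SPT5, 57.7% for TRIM28, 6.04% for OGA and 16.8% for O-GlcNAc, and just beyond it in 64.8%, 56.2%, 6.67% and 19.0% for the same targets in that order.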

How the data were processed

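The ChIP-seq peak lists of 5 targets in BJAB cells were used, 1 library per target, grouped by sample title. Fixation lasted 5 min in 1% formaldehyde, each precipitation took 10 µg of antibody, and 25 ng of DNA entered each library, per the labels' protocols. Named per the submitters' processing notes, without their roles, are Bowtie2 2.1.0, Trimmomatic 0.30, bcl2fastq 2.17 and the build hg19. No label or header names the peak caller, the control or the threshold. The deposited lists give, per peak, its ends, a score (not used), the authors' fold enrichment (a ratio to a background), −log10 p and −log10 q values and the summit. The smallest −log10 q was 1.30 to 1.33, and 0 peaks overlapped another peak of the same list. Depth is unknown, since neither reads nor totals were analysed here.

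Neighbouring Pol II summits at most 1500 bp apart were paired. A target lay between when its summit fell strictly between the 2 Pol II summits, and the same number of bases was searched outward from each summit for comparison. The outward windows were not cleared of other Pol II peaks. Position ran from the higher to the lower Pol II summit. No tests were run. The sites named are the 5 pairs with the highest lower peak, the 3 with the largest height ratio, the 3 with the shortest spacing, the 5 highest with all 4 targets between and the longest run, leaving out chromosome 8. Alternatives covered the limit, the −log10 q, the height measure, the overlap and the definition of between. The weighting to equal heights or widths, the quartiles of the lower peak, bridging by 1 peak, the inward and outward windows and the split by run length were chosen after seeing the data, and members and lists were chosen with earlier results of these data known. The code was tested on simulated data and against bedtools 2.31.1, with Python 3.11.15, numpy 2.4.6, pandas 2.3.3, scipy 1.17.1 and matplotlib 3.10.9.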

Additional observations from a re-analysis of the deposited data

Results flagged for a closer look

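Chromosome X was outside the rule and enters none of the comparisons above, and its values are given because it also held Pol II pairs. It had 176 paired Pol II peaks of 553 (31.8%, 28.1% to 35.8%) and 98 pairs with a median spacing of 646.5 bp and a median height ratio of 1.47. O-GlcNAc lay between 32 of the 98 pairs (32.7%, 24.2% to 42.4%), SPT5 between 60 (61.2%), TRIM28 between 28 (28.6%, 20.6% to 38.2%) and OGA between 3 (3.06%). On chromosomes 1 to 22 the median spacing was 729 bp (713 to 743 bp) and TRIM28 lay between 42.1% of pairs (40.5% to 43.7%), both above the values on chromosome X. No interval was computed for the median spacing on chromosome X, which rests on 98 pairs, so the spacings cannot be called different.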

How the results depend on the processing

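Of 96 alternatives tried on 22 results, 35 left the value within its interval or its count within 1.5 times and 61 moved it. Of the 96, 8 concern the 4 differences between paired and unpaired peaks, the results that carry a sign, and none of the 8 turned it. Within single strata the sign was mixed for O-GlcNAc, with the paired share higher in 5 of 10 strata of height and 5 of 10 of width. For OGA the paired share was higher in 1 of 10 strata of height and 5 of 10 of width. The cause of each move was not tested beyond what the alternative changes by construction. With a limit of 1000 bp the median spacing was 628.5 bp, the share of pairs with a summit between was 33.7% for O-GlcNAc, 39.7% for TRIM28 and 53.4% for SPT5, and the share of those summits in the central 33.3% of the stretch was 4.64% for SPT5, 22.5% for TRIM28, 37.6% for OGA and 51.2% for O-GlcNAc. With a limit of 2000 bp the spacing was 801 bp, the share between was 43.9% for TRIM28 and 28.6% for O-GlcNAc, and the central share was 8.08% for SPT5 and 41.0% for O-GlcNAc. Where every list was cut to peaks whose −log10 q reached 5, paired peaks were overlapped by TRIM28 in 40.5%, OGA in 3.71% and O-GlcNAc in 40.3%, the share between was 59.8% for SPT5, 34.2% for TRIM28, 3.80% for OGA and 36.3% for O-GlcNAc, the central share was 5.39% for SPT5 and 47.2% for O-GlcNAc, and the TRIM28 height order matched in 51.1%. In pairs that stood alone the spacing was 712 bp, the height ratio 1.58, the share between 39.1% for O-GlcNAc, 47.7% for TRIM28 and 63.1% for SPT5, and the SPT5 order matched in 78.7%. With −log10 p as height the ratio was 2.36 and the order matched in 77.4% for SPT5 and 59.1% for TRIM28. An overlap of at least 50% of the shorter peak gave 96.8% for SPT5, 46.4% for TRIM28, 4.33% for OGA and 23.7% for O-GlcNAc at paired peaks. Counting any peak that overlapped the stretch raised the share between to 99.5% for SPT5, 64.8% for TRIM28, 6.97% for OGA and 38.3% for O-GlcNAc. Summits at least 100 bp from both Pol II summits gave 10.9%, 24.7%, 3.58% and 26.7% for the same targets in that order, and summits in the gap gave 3.99%, 6.86%, 0.930% and 13.6%. With the other lists shortened to the length of the OGA list by −log10 p, overlap was 16.6% for O-GlcNAc, 0.777% for TRIM28 and 18.2% for SPT5, and the share between was 14.5%, 0.520% and 8.89% in that order, while OGA kept 5.19% and 4.98% by construction.

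Paired minus unpaired shares, weighted to equal Pol II heights, were -0.12 points for O-GlcNAc, -9.81 for TRIM28 and 4.62 for SPT5. Weighted to equal widths they were 4.82 for SPT5, -9.05 for TRIM28, -0.64 for OGA and -1.81 for O-GlcNAc. Both weightings were chosen after seeing the data. No paired analysis was possible because each target had 1 library, and for the same reason no replicate could be left out. Depth is unknown, so a missing peak cannot be told apart from a shallow library.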

Other observations

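Pairs were spread over the autosomes unevenly. The share of Pol II peaks that were paired was highest on chromosomes 19 (39.1%, 36.5% to 41.6%), 16 (39.0%, 36.1% to 42.1%) and 17 (37.7%, 35.1% to 40.4%) and lowest on chromosomes 15 (29.1%, 25.7% to 32.7%) and 18 (29.4%, 24.3% to 35.1%). Gene density and mappability were not analysed here, and their part in these shares was not tested.

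Where 2 targets lay between the same Pol II summits, OGA and TRIM28 summits were the closest of the 5 combinations measured, a median of 46 bp apart (31 to 57 bp, 153 pairs). OGA and O-GlcNAc were 66 bp apart (50 to 99 bp, 101 pairs), O-GlcNAc and TRIM28 119 bp (103 to 132 bp, 687 pairs), TRIM28 and SPT5 144 bp (129 to 157 bp, 1013 pairs) and O-GlcNAc and SPT5 188 bp (179 to 198 bp, 859 pairs). Of the 859 pairs with both O-GlcNAc and SPT5 between, the O-GlcNAc summit was the nearer to the higher Pol II summit in 187 (21.8%).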
